A study of Mus musculus with 24 samples.

Results

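The chemokine receptors examined were Ccr1, Ccr2, Ccr3, Ccr7, Cx3cr1, Cxcr4 and Ccrl2, measured in cultured mouse macrophages. They were represented by every probe set whose annotation named 1 of these genes and no other gene, which gave 12 of the 45037 probe sets on the arrays, for 7 of 18193 genes measured. Ccr2 had 4 probe sets, Ccr1 and Cx3cr1 had 2 each, and the other 4 genes had 1 each. All 12 had values on every array, and no filter on low values was applied.

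Total RNA of macrophages grown from bone marrow was measured on 24 Affymetrix arrays, 3 in each of 8 groups. All mice were males that carried the Il10tm1Cgn deletion of Il10, an anti-inflammatory cytokine, so no group had wild-type Il10. CB-R1 (C3Bir.Cg-Il10tm1Cgn Cdcs1) had the C3Bir background with a long segment of B6 chromosome 3 that holds Cdcs1, a colitis susceptibility locus. C3Bir (C3H/HeJBir-Il10tm1Cgn) was the colitis-susceptible parent. BC-R3 (B6.Cg-Il10tm1Cgn Cdcs1) carried Cdcs1 of C3Bir on the B6 background, and B6 (C57BL/6J-Il10tm1Cgn) was the colitis-resistant parent. Cells grew for 6 days in medium with serum, and the labels name no added growth factor. Those labelled flagellin were then given commensal flagellin at 1 µg/mL for 4 h, and those labelled unstimulated received medium alone. Each RNA sample pooled 3 wells. Array numbers 1 to 3 within a group come from the labels and are not tied to a mouse. The p-values therefore measure spread among arrays, which may be partly technical.

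Chemokine receptors are membrane-spanning receptors coupled to inhibitory G proteins, and they steer leukocytes along gradients of chemokines. On cells of the macrophage lineage, Ccr2 draws inflammatory monocytes out of the marrow towards Ccl2, Cx3cr1 binds the membrane-bound chemokine fractalkine, and Cxcr4 holds cells near the Cxcl12 made by marrow stroma. Ccr1 and Ccr3 belong to the CC receptors of inflammation, Ccr7 guides dendritic cells to lymph nodes, and Ccrl2 is an atypical receptor that binds chemerin without the usual signalling.

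The arrays had medians of 6.55 to 6.64 log2 units and lower quartiles of 5.29 to 5.42, and the values carry no detection call. The 12 of 13 macrophage markers measured averaged 11.57 to 12.24 over the arrays, and the 8 of 10 dendritic cell markers measured averaged 6.61 to 7.08. A mean over 17 inflammatory cytokine genes stood apart on 4 arrays labelled unstimulated. C3Bir unstimulated array 2 had 8.47 and array 3 had 8.37, and in unstimulated B6 array 2 had 9.55 and array 3 had 9.62. The other 8 unstimulated arrays had 7.20 to 7.90, and the 12 flagellin arrays had 7.35 to 7.71. Of those 8, array 1 of BC-R3, at 7.90, and array 1 of B6, at 7.85, lay above every flagellin array. This B6 array also had a mean of 11.61 over 19 interferon-stimulated genes, against 9.21 to 11.37 on the flagellin arrays. It is the only B6 unstimulated array in the values without the 4 arrays, so those values do not rest on a B6 array of low cytokine mean. The groups are named by their labels throughout, and the receptor calls that rest on these 4 arrays are given with and without them. Leaving them out keeps 1 unstimulated array in C3Bir and 1 in B6, each assumed to vary like the arrays of the other groups, so a p-value for either strain's unstimulated cells then rests on an arm of 1 array. In bulk RNA of this kind, fewer cells of a type and less RNA per cell cannot be told apart.

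The 7 receptors fell into 3 patterns over the arrays. Ccr1 was higher and Ccr3 lower on the C3Bir background, as a mean over the strains of both Cdcs1 alleles. Cxcr4 was lowest and Ccrl2 highest on the 4 arrays with a high cytokine mean, and 3 Ccr2 probe sets and both Cx3cr1 probe sets were low on those arrays, though not there alone. Ccr7 and 1 Ccr2 probe set varied little. Over the 24 arrays the log2 range of a probe set was widest for Cx3cr1 1450020_at, at 3.35, and narrowest for Ccr2 1460067_at, at 0.68.

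**Figure D1:**
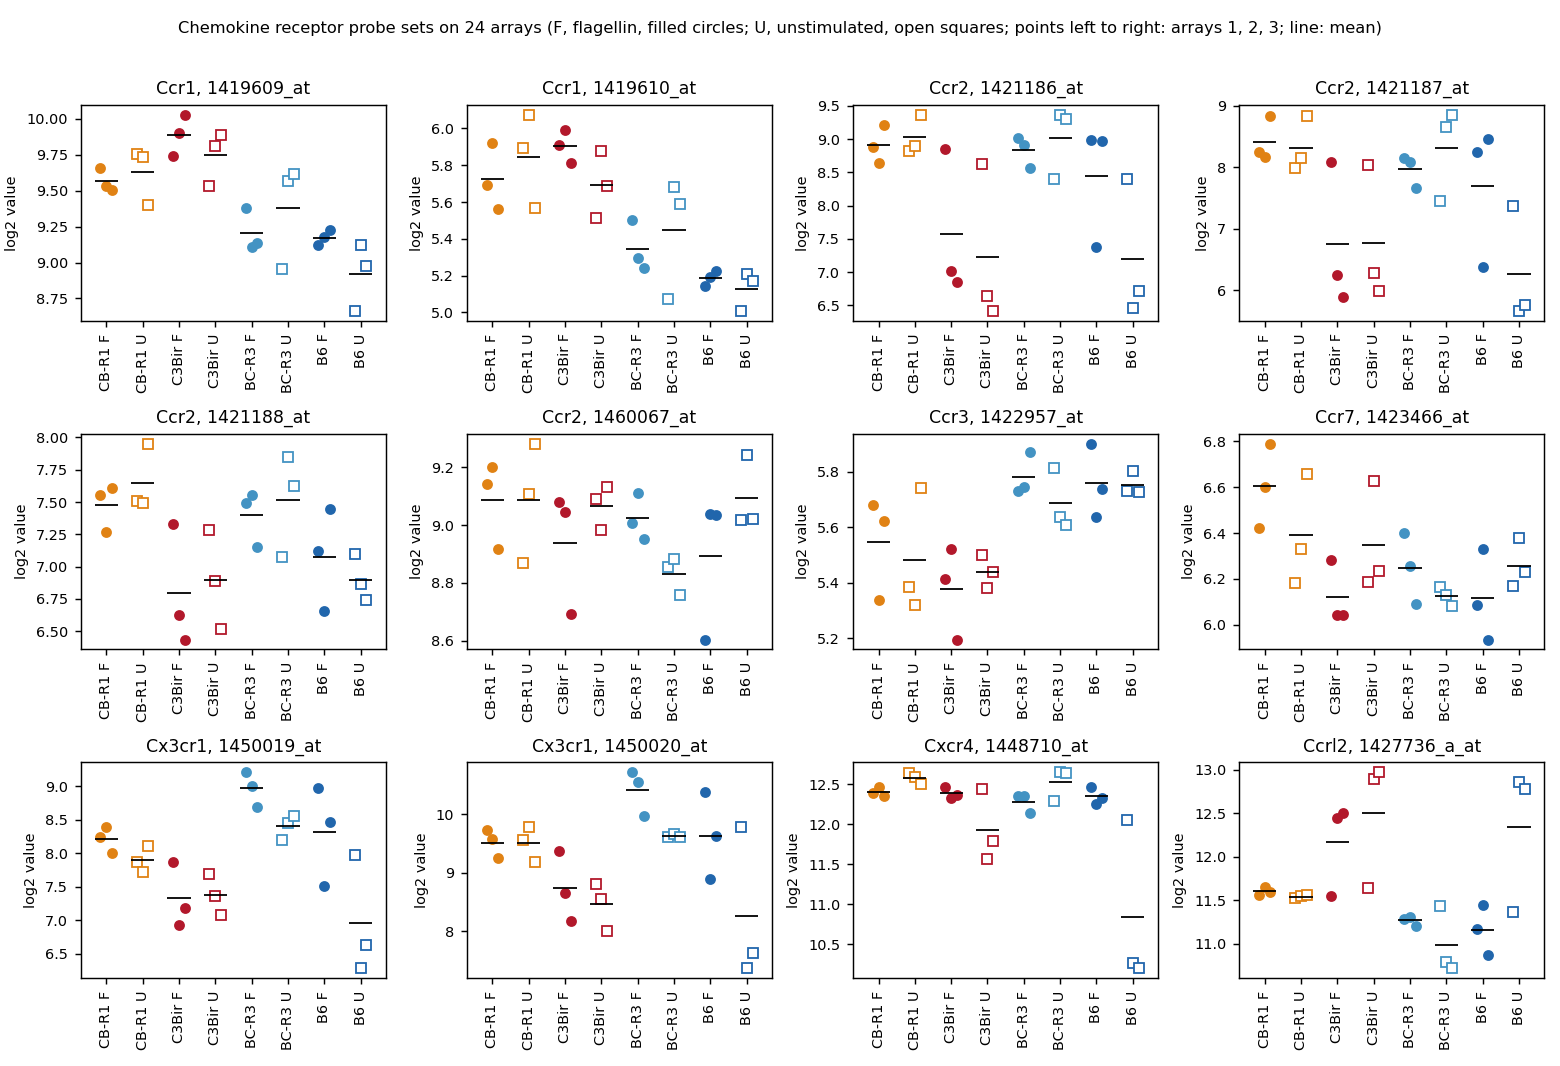
Log2 value of each of the 12 probe sets on every array, with strain and condition along the horizontal axis and log2 value on the vertical axis; points are arrays and bars are group means. Cxcr4 lies between 10.20 and 12.65, with its lowest points in the B6 unstimulated group.

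With flagellin, 4 of the 12 receptor probe sets differed from unstimulated cells in B6, at an adjusted p under 0.05 over 45033 probe sets (limma, Benjamini-Hochberg). Of all probe sets 17.2% passed in that comparison, 9.31% higher and 7.94% lower. Cxcr4 and both Cx3cr1 probe sets rose, and Ccrl2 fell. The 12 differences had a median of 0.21, against -0.03 over all probe sets. For 2 of the 12 the flagellin and unstimulated arrays of B6 did not overlap, against 26.4% of all probe sets. That share of the receptors was below the share of all probe sets.

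In the other 3 strains, 0 receptor probe sets passed for flagellin, and 0% of all probe sets did. At an unadjusted p under 0.05, 0 of the 12 passed in any of these strains. Of the 45033 probe sets, 1436 did so in CB-R1, 3404 in C3Bir and 4024 in BC-R3. With limma's trend and robust options the adjusted count was also 0 in each of the 3 strains. The receptor differences ran over -0.34 to 0.45 in C3Bir, -0.36 to 0.78 in BC-R3 and -0.18 to 0.32 in CB-R1.

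**Figure D2:**
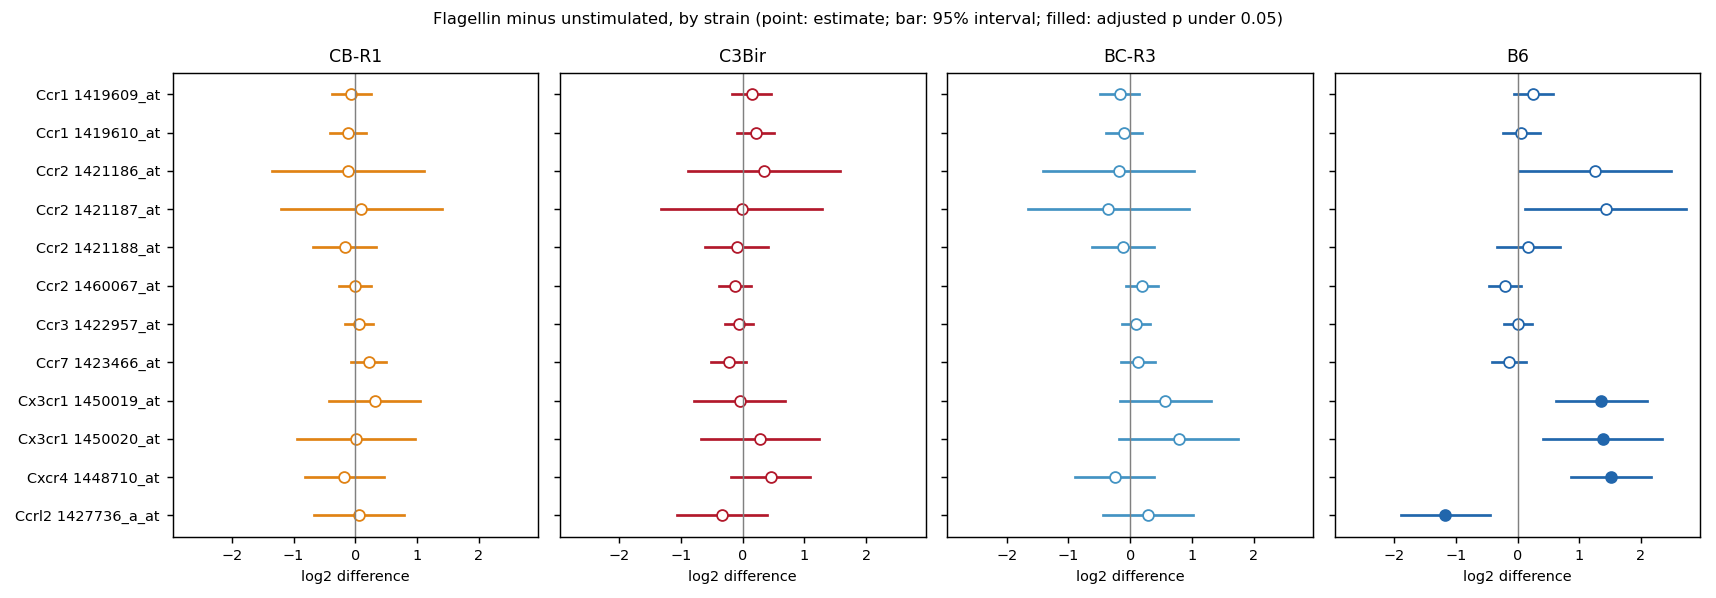
Flagellin minus unstimulated log2 value of the 12 probe sets in each strain, with the difference on the horizontal axis, points for estimates, bars for 95% intervals and filled points for an adjusted p under 0.05. Filled points occur in B6 alone, where Cxcr4 stands at 1.51 and Ccrl2 at -1.17.

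Between strains, 3 of the 12 passed for C3Bir against B6 with flagellin, where 5.68% of all probe sets did, and 3 passed unstimulated, where 13.4% did. For BC-R3 against B6, 7 of the 12 passed unstimulated, 6 higher and 1 lower, against 26.5% of all probe sets, 15.3% higher and 11.2% lower. With flagellin 0 passed, against 0.0222% of all. For CB-R1 against C3Bir, 0 passed with flagellin and 0 unstimulated, where 0.0555% and 0.586% of all probe sets did. The arrays of CB-R1 and C3Bir did not overlap for 4 of the 12 with flagellin, against 16.7% of all probe sets, and for 6 of the 12 unstimulated, against 18.9%. At an unadjusted p under 0.05, 6 of the 12 passed with flagellin, against 3717 of 45033 probe sets, and 6 unstimulated, against 6717, and limma's trend and robust options also gave 0 adjusted calls in both conditions.

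Ccr2, the receptor of Ccl2 on inflammatory monocytes, had the widest spread within groups when pooled over the 8 groups, with an SD of 0.85 on 1421187_at and 0.81 on 1421186_at. On probe set 1421186_at, C3Bir cells had 8.85, 7.02 and 6.85 with flagellin on arrays 1 to 3, against 8.62, 6.65 and 6.41 unstimulated. B6 cells had 8.98, 7.38 and 8.97 with flagellin, against 8.40, 6.46 and 6.71 unstimulated. In both parents array 1 was high in both conditions, and arrays 2 and 3 were lower, except that the flagellin array 3 of B6 was as high as array 1. CB-R1 cells had 8.88, 8.64 and 9.22 with flagellin, against 8.83, 8.89 and 9.36 unstimulated. BC-R3 cells had 9.02, 8.91 and 8.57 with flagellin, against 8.40, 9.37 and 9.30 unstimulated. All 12 arrays of the congenic strains thus lay at or above 8.40, and flagellin and unstimulated arrays overlapped in all 4 strains.

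Ccr2 was higher in BC-R3 than in B6 unstimulated cells, by 1.83 ± 0.59 on 1421186_at (log2 ± SE, adjusted p = 0.0276) and by 2.05 ± 0.62 on 1421187_at (adjusted p = 0.0211). The calls were lost without any 1 of B6 unstimulated array 2 or 3 or BC-R3 unstimulated array 2 or 3. The largest adjusted p was then 0.132 for 1421186_at, without the B6 array 2, and 0.0996 for 1421187_at, without the BC-R3 array 3. The flagellin difference in B6 was 1.25 ± 0.59 on 1421186_at and 1.43 ± 0.62 on 1421187_at, and neither passed (adjusted p = 0.14 and 0.114). These Ccr2 differences in B6 were 0.04 and 0.32 without the 4 arrays of high cytokine mean. BC-R3 then exceeded the 1 remaining B6 unstimulated array by 0.62 on 1421186_at (adjusted p = 0.733) and by 0.94 on 1421187_at (adjusted p = 0.642), and neither passed. With the arrays of BC-R3 and B6 unstimulated cells fitted alone, neither passed either. CB-R1 exceeded C3Bir by 1.33 ± 0.59 with flagellin and by 1.80 ± 0.59 unstimulated on 1421186_at, without passing (adjusted p = 0.556 and 0.14).

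Macrophage marker means moved with Ccr2 1421186_at in the parent strains. They were 12.09, 11.59 and 11.68 on the C3Bir flagellin arrays, against 12.10, 11.59 and 11.57 unstimulated, and 12.24, 11.73 and 12.16 on the B6 flagellin arrays, against 12.11, 11.85 and 11.85 unstimulated. On the 12 arrays of CB-R1 and BC-R3 they ran over 11.86 to 12.19. The mean of the 3 monocyte markers measured other than Ccr2 was likewise highest on array 1 of each parental group, at 9.35 and 9.36 in C3Bir with flagellin and unstimulated and at 9.74 and 9.63 in B6. It ran over 8.62 to 8.97 on C3Bir arrays 2 and 3 and over 8.94 to 9.28 on B6 arrays 2 and 3, against 8.94 to 9.26 in BC-R3 and 9.64 to 9.91 in CB-R1. In BC-R3 unstimulated the order was reversed, with monocyte means of 9.26, 8.94 and 8.94 where Ccr2 1421186_at was 8.40, 9.37 and 9.30. In BC-R3 with flagellin the monocyte means of 9.14, 9.08 and 9.06 ran in the order of Ccr2 1421186_at. Chil3, a chromosome 3 gene among the 3 monocyte markers, differed by Cdcs1 allele. The C3Bir allele minus the B6 allele was -1.12 ± 0.17 with flagellin and -1.29 ± 0.17 unstimulated, so strain differences in the monocyte mean rest in part on this gene. The part of these markers in the Ccr2, Cx3cr1 and Ccrl2 values was not tested.

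The 4 Ccr2 probe sets did not move together. Deviations from the group means correlated at 0.98 between 1421186_at and 1421187_at and at 0.86 between 1421186_at and 1421188_at over the 24 arrays, but at -0.02 between 1421186_at and 1460067_at. The probe set 1460067_at stayed between 8.60 and 9.28 on every array and passed in none of the 17 contrasts. The 1421188_at probe set spanned 6.44 to 7.95 and also passed in none. Which transcripts each probe set reads was not examined here, so statements on Ccr2 hold for the probe set named.

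Cx3cr1, the fractalkine receptor of resident macrophages and patrolling monocytes, was highest in BC-R3 with flagellin. On probe set 1450020_at, B6 cells had 10.38, 8.90 and 9.62 with flagellin, against 9.78, 7.37 and 7.62 unstimulated. C3Bir cells had 9.38, 8.66 and 8.18 with flagellin, against 8.81, 8.56 and 8.01 unstimulated. In both parents array 1 was the highest of its group, and the conditions overlapped. BC-R3 cells had 10.72, 10.56 and 9.98 with flagellin, against 9.61, 9.67 and 9.62 unstimulated. CB-R1 cells had 9.73, 9.57 and 9.25 with flagellin, against 9.56, 9.79 and 9.18 unstimulated. The BC-R3 conditions did not overlap, whereas those of CB-R1 did.

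In B6 the flagellin arrays exceeded the unstimulated ones by 1.38 ± 0.46 on 1450020_at (adjusted p = 0.0449) and by 1.35 ± 0.35 on 1450019_at (adjusted p = 0.0153). The first call was lost in 15 of the 24 fits that left out 1 array. In B6 these were the fits without unstimulated array 2 or 3 or flagellin array 1 or 3, and the smallest difference, 0.93, came without unstimulated array 2 (adjusted p = 0.231). The other fits left out an array that enters the shared spread alone, C3Bir unstimulated array 2 or flagellin array 2, BC-R3 unstimulated array 2 or 3 or flagellin array 1 or 2, or any CB-R1 array but unstimulated array 3. The 1450019_at call was lost on leaving out B6 unstimulated array 2 or 3 or B6 flagellin array 1, with a largest adjusted p of 0.105. Without the 4 arrays of high cytokine mean the Cx3cr1 1450020_at difference turned to -0.15 (adjusted p = 0.959), as the mean of 3 flagellin arrays minus 1 unstimulated array, and that of 1450019_at was 0.34 and did not pass.

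BC-R3 exceeded B6 unstimulated in Cx3cr1 by 1.37 ± 0.46 on 1450020_at (adjusted p = 0.0333) and by 1.44 ± 0.35 on 1450019_at (adjusted p = 0.00664). The first call was lost without B6 unstimulated array 2 or 3 or any BC-R3 unstimulated array (largest adjusted p = 0.191), and the second without B6 unstimulated array 2 (adjusted p = 0.0535). Without the 4 arrays of high cytokine mean the Cx3cr1 1450020_at difference became -0.15 (adjusted p = 0.923), whereas that of 1450019_at stayed above 0, at 0.43, and did not pass (adjusted p = 0.697). Both compare BC-R3 with 1 B6 array. With flagellin, Cx3cr1 was lower on the C3Bir background than on the B6 background. The 6 arrays of C3Bir and CB-R1 ran over 6.94 to 8.40 (median 7.94) on 1450019_at, against 7.51 to 9.21 (median 8.84) on the 6 arrays of BC-R3 and B6. The difference was -0.87 ± 0.25 (adjusted p = 0.0251), and on 1450020_at it was -0.90 ± 0.33 and did not pass (adjusted p = 0.082). The 4 unstimulated arrays of high cytokine mean take no part in these flagellin means and enter the comparison only through the shared spread. A smaller p-value without those arrays is thus no added support. The 1450019_at call was lost in 6 of the 24 fits without 1 array, those without B6 flagellin array 1 or 3, C3Bir flagellin array 2 or 3, BC-R3 flagellin array 1 or CB-R1 flagellin array 3, with a largest adjusted p of 0.0828.

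Cxcr4, the receptor of Cxcl12, had its lowest values in B6 unstimulated cells. B6 cells gave 12.47, 12.25 and 12.33 with flagellin, against 12.05, 10.26 and 10.20 unstimulated. C3Bir cells gave 12.46, 12.32 and 12.37 with flagellin, against 12.44, 11.56 and 11.79 unstimulated. All 3 flagellin arrays of B6 lay above its 3 unstimulated arrays, of which arrays 2 and 3 were far lower than array 1, and in C3Bir the conditions overlapped. BC-R3 cells gave 12.35, 12.35 and 12.14 with flagellin, against 12.29, 12.65 and 12.64 unstimulated. CB-R1 cells gave 12.39, 12.47 and 12.35 with flagellin, against 12.64, 12.58 and 12.50 unstimulated. In CB-R1 every flagellin array lay just below every unstimulated one.

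The Cxcr4 promoter is shown because Cxcr4 made the largest change with flagellin of the 12 probe sets in B6. The window runs from 250 bases before to 50 after the RefSeq start, at chr1:128592250-128592549 on the minus strand of GRCm38.p6. Capitals mark matches of a GC box (GGGCGG, either strand) and of a TATA box (TATAAA, either strand, here overlapping with its own reverse match).
Cxcr4: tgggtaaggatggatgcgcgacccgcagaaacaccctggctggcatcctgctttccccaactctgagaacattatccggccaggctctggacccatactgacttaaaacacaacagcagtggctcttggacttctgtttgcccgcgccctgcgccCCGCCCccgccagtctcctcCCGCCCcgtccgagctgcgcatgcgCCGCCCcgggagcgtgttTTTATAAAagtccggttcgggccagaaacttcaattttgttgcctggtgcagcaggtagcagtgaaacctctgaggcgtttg
The GC boxes start 95, 75 and 50 bases before the start site, and the TATA box starts 30 bases before it. Of 32851 RefSeq mouse promoters of this length, 35.658% held a GC box and 13.616% a TATA box. A match describes letters in the window and does not show binding.

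The Cxcr4 rise with flagellin in B6 was 1.51 ± 0.31, a 2.85-fold difference (adjusted p = 0.00508, 95% interval 0.87 to 2.16). The SE, interval and p use 1 spread shared by all groups. The SD of Cxcr4 was 1.05 in B6 unstimulated and 0.11 in B6 with flagellin, so the interval understates the spread of the B6 unstimulated arrays. The call was kept in all 24 fits that left out 1 array, with a largest adjusted p of 0.0453. Leaving out the 4 arrays of high cytokine mean, and thus all but 1 B6 unstimulated array, brought the Cxcr4 difference to 0.30 (adjusted p = 0.735). With the B6 arrays fitted alone the difference did not pass. BC-R3 exceeded B6 unstimulated by 1.69 ± 0.31 (adjusted p = 0.00129), a call also kept in all 24 fits, and C3Bir exceeded B6 unstimulated by 1.09 ± 0.31 (adjusted p = 0.0221). The C3Bir call was lost without B6 unstimulated array 2, B6 unstimulated array 3 or C3Bir unstimulated array 1, with a largest adjusted p of 0.164. The Cxcr4 differences without the 4 arrays were 0.48 for BC-R3 (adjusted p = 0.269) and 0.39 for C3Bir (adjusted p = 0.36), each against 1 B6 array, and neither passed. The BC-R3 difference also did not pass with the compared groups fitted alone. The flagellin change in BC-R3 minus that in B6 was -1.76 ± 0.44 (adjusted p = 0.0265), the 1 call among the 12 probe sets in that contrast, where 8.05% of all probe sets passed. It was -0.55 without the 4 arrays and did not pass (adjusted p = 0.448).

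Ccrl2, the atypical chemerin receptor, was highest on the 4 unstimulated arrays on which Cxcr4 was lowest. B6 cells had 11.17, 11.45 and 10.88 with flagellin, against 11.37, 12.86 and 12.78 unstimulated. C3Bir cells had 11.55, 12.44 and 12.50 with flagellin, against 11.64, 12.89 and 12.97 unstimulated. Arrays 2 and 3 of C3Bir were thus high in both conditions, whereas in B6 they were high unstimulated alone. Cxcr4 was not low on C3Bir flagellin arrays 2 and 3, at 12.32 and 12.37. BC-R3 cells had 11.29, 11.31 and 11.21 with flagellin, against 11.44, 10.80 and 10.72 unstimulated. CB-R1 cells had 11.56, 11.65 and 11.60 with flagellin, against 11.52, 11.55 and 11.56 unstimulated. The conditions overlapped in all 4 strains, and the 6 CB-R1 arrays ran over 11.52 to 11.65.

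The Ccrl2 promoter is shown because, of Cxcr4, Ccrl2, Ccr2 and Cx3cr1, it alone had a window with an NF-kB match. Any part of that match in the Ccrl2 values was not tested. The window of the first of 3 RefSeq start sites lies at chr9:111057469-111057768 on the minus strand of GRCm38.p6. Capitals mark a GC box match and a match to the NF-kB motif.
Ccrl2: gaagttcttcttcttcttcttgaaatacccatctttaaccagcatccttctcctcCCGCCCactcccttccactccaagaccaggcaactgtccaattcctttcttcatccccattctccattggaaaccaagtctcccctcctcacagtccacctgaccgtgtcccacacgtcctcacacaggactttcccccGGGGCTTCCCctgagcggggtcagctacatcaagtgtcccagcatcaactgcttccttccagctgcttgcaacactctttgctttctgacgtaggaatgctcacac
The NF-kB match starts 56 bases before the start site and the GC box match 195 bases before it, and 8.459% of the 32851 promoters held an NF-kB match. The windows of the other 2 Ccrl2 start sites held no match of the 7 motifs searched, which were NF-kB, AP-1 (TGANTCA), the interferon-stimulated response element, the gamma-activated site (TTCNNNGAA), PU.1 (GAGGAAG), the GC box and the TATA box, each on both strands. The Cx3cr1 and Ccr2 windows also held none of them. The Ccr3 window held an NF-kB match and an AP-1 match, which start 179 and 144 bases before its start site.

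Ccrl2 fell by 1.17 with flagellin in B6 (SE 0.35, adjusted p = 0.0272) and was 1.35 lower in BC-R3 than in B6 unstimulated (log2 difference -1.35, SE 0.35, adjusted p = 0.00837). The flagellin call was lost without B6 unstimulated array 2 or 3 or B6 flagellin array 1 or 3, with a largest adjusted p of 0.144. The BC-R3 call was lost without B6 unstimulated array 2 or 3, with a largest adjusted p of 0.0592. Without the 4 arrays of high cytokine mean the Ccrl2 flagellin difference in B6 was -0.21 (adjusted p = 0.904), and that of BC-R3 against B6 unstimulated was -0.39 (adjusted p = 0.617), each with 1 B6 unstimulated array. With flagellin, all 6 Ccrl2 arrays of the C3Bir background lay above all 6 of the B6 background, at 11.55 to 12.50 (median 11.63) against 10.88 to 11.45 (median 11.25). That difference was 0.67 ± 0.25 and did not pass (adjusted p = 0.0879). Leaving out the 4 unstimulated arrays of high cytokine mean did not alter that size, since they enter this comparison only through the shared spread. A smaller p-value without them is thus no added support.

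**Figure D3:**
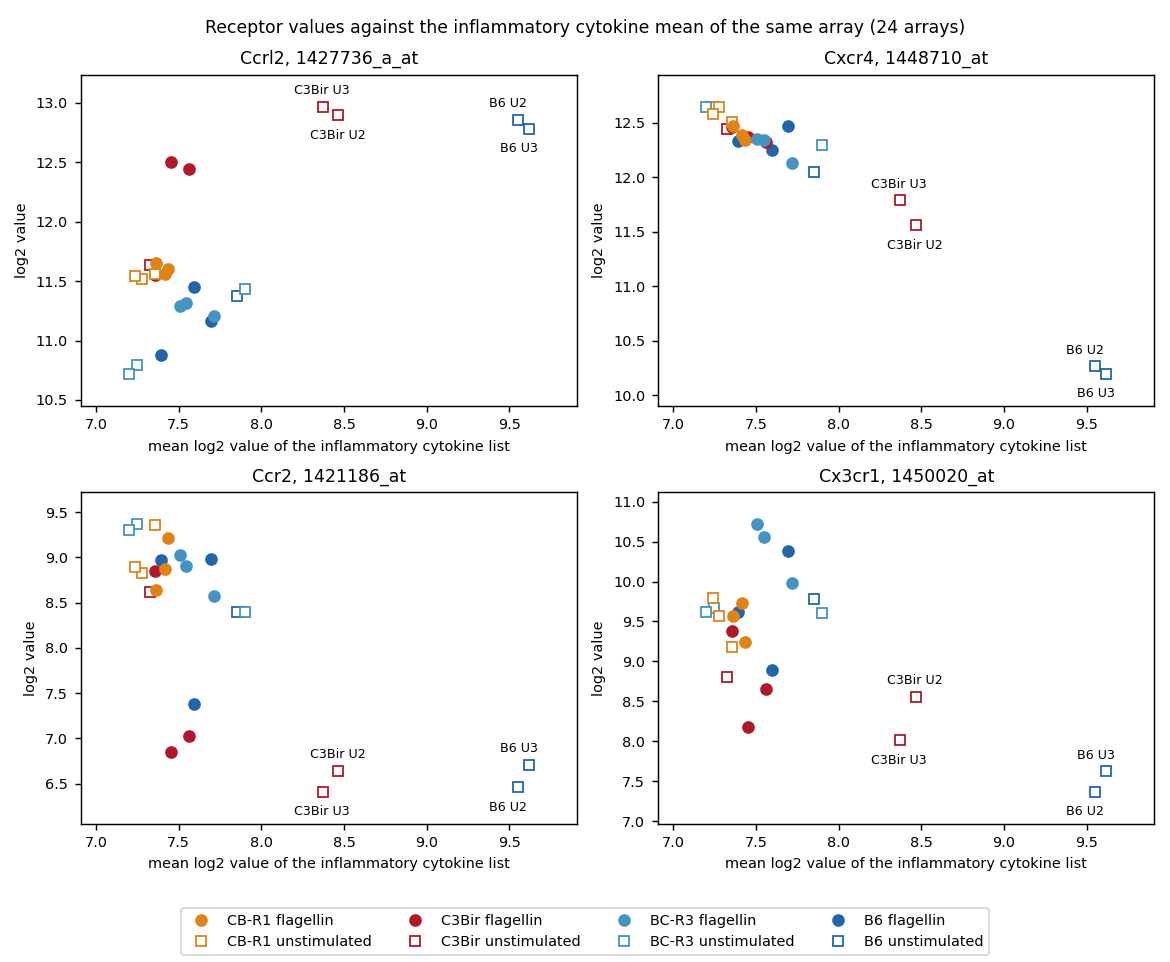
Log2 value of Ccrl2, Cxcr4, Ccr2 (1421186_at) and Cx3cr1 (1450020_at) on the vertical axes against the mean log2 value of 17 inflammatory cytokine genes on the same array, with 1 point for each of 24 arrays. The named unstimulated arrays 2 and 3 of B6 and C3Bir lie to the right, at cytokine means of 8.37 to 9.62, and Ccr2 was also low on C3Bir flagellin arrays 2 and 3, at 7.02 and 6.85, with cytokine means within 7.35 to 7.71.

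Ccr1, a receptor of several inflammatory CC chemokines on monocytes and neutrophils, differed by genetic background. On probe set 1419609_at, C3Bir cells had 9.74, 9.90 and 10.03 with flagellin and 9.53, 9.81 and 9.89 unstimulated. CB-R1 cells had 9.66, 9.53 and 9.50 with flagellin and 9.76, 9.74 and 9.40 unstimulated. No array of the C3Bir background was below 9.40. BC-R3 cells had 9.38, 9.11 and 9.14 with flagellin and 8.96, 9.57 and 9.62 unstimulated. B6 cells had 9.12, 9.17 and 9.22 with flagellin and 8.66, 9.12 and 8.98 unstimulated. With flagellin the backgrounds did not overlap, and unstimulated they did, through BC-R3 arrays 2 and 3.

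The Ccr1 promoter is shown because Ccr1 differed by background on both probe sets in both conditions. Its window lies at chr9:123968643-123968942 on the minus strand of GRCm38.p6, and capitals mark a match to the NF-kB motif that starts 74 bases before the start site.
Ccr1: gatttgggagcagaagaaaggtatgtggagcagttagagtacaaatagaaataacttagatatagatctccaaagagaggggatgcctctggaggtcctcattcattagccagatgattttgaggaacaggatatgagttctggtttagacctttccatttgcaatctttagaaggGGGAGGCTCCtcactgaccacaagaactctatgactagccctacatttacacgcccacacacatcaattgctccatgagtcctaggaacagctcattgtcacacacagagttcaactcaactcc
The reference letters are those of C57BL/6J, and no variant of C3Bir in this window or under the probes was examined.

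The C3Bir background minus the B6 background was 0.54 ± 0.11 in Ccr1 1419609_at with flagellin (adjusted p = 0.00159) and 0.54 ± 0.11 unstimulated (adjusted p = 0.00139), a 1.45-fold difference in each condition. Probe set 1419610_at gave 0.55 ± 0.10 with flagellin (adjusted p = 7.53e-04) and 0.48 ± 0.10 unstimulated (adjusted p = 0.00227), though 9 of its 24 values lay below the lower quartile of their array. All 4 Ccr1 calls were kept in each of the 24 fits that left out 1 array. Without the 4 arrays of high cytokine mean the unstimulated values were 0.56 for 1419609_at (adjusted p = 0.0249) and 0.45 for 1419610_at, which no longer passed (adjusted p = 0.0793). By background, 4 of the 12 receptor probe sets passed with flagellin, where 12% of all probe sets did, and 3 of the 12 unstimulated, where 14.2% did.

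The parent strains are part of the background mean, so their difference is no separate support for it. In the congenic pair, Ccr1 1419609_at averaged 9.56 in CB-R1 and 9.21 in BC-R3 with flagellin. Unstimulated the averages were 9.63 and 9.38, and the arrays overlapped. The gap was smaller than in the parent pair in each condition. C3Bir exceeded B6 in Ccr1 1419609_at by 0.72 ± 0.15 with flagellin (adjusted p = 0.0052) and by 0.83 ± 0.15 unstimulated (adjusted p = 0.00103), and no array of one strain overlapped the other. BC-R3 exceeded B6 unstimulated by 0.46 ± 0.15 (adjusted p = 0.0303), a call lost without B6 unstimulated array 1 or 3 or BC-R3 unstimulated array 2 or 3, with a largest adjusted p of 0.169. The unstimulated Ccr1 1419609_at differences without the 4 arrays were 0.87 for C3Bir against B6 (adjusted p = 0.128) and 0.72 for BC-R3 against B6 (adjusted p = 0.275), each with 1 B6 array, and neither passed. With flagellin the difference of BC-R3 from B6 in Ccr1 1419609_at was 0.03 ± 0.15 and did not pass. The order of the 8 group means ran from 9.89 ± 0.14 in C3Bir with flagellin (SD, n = 3) down to 8.92 ± 0.23 in B6 unstimulated, and 6 of the 7 neighbouring groups overlapped in this order.

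Markers of neutrophils, which also carry Ccr1, moved with background as well. The mean of the 8 of 10 neutrophil markers measured was 11.02 to 12.17 (median 11.89) on arrays of the C3Bir background, against 10.53 to 11.39 (median 10.93) on those of the B6 background. By background 4 of the 8 markers were higher with flagellin, against 1488 higher and 1057 lower of 18193 genes, and 7 of the 8 unstimulated, against 1895 and 1193, and 0 were lower in either condition, with Mpo, the myeloperoxidase of neutrophil granules, at 1.46 ± 0.31 with flagellin and 1.79 ± 0.31 unstimulated. None of the 8 averaged below the lower quartile of the arrays, and Ly6g and Retnlg were not analysed here. Within the C3Bir background, neutrophil and Ccr1 group means ran in opposite order. With flagellin the neutrophil mean was 12.06 in CB-R1 and 11.39 in C3Bir, where Ccr1 1419609_at averaged 9.56 and 9.89. Unstimulated they were 12.04 and 11.43, and 9.63 and 9.75. On the B6 background with flagellin, BC-R3 was above B6 in both (11.16 and 10.90, and 9.21 and 9.17). Unstimulated the order was opposite there too, with neutrophil means of 10.81 in BC-R3 and 10.85 in B6, where Ccr1 1419609_at averaged 9.38 and 8.92. The part of the neutrophil markers in the Ccr1 difference was not tested.

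Ccr3, the eotaxin receptor of eosinophils, was close to the lower quartile of the arrays, and its differences are given on the log2 scale without a fold. Its 6 values on the C3Bir background with flagellin ran over 5.19 to 5.68 (median 5.47), against 5.64 to 5.90 (median 5.74) on the B6 background. The difference was -0.31 ± 0.08 (adjusted p = 0.0101), kept in all 24 fits without 1 array. Unstimulated, the C3Bir background had 5.32 to 5.74 (median 5.41), against 5.61 to 5.81 (median 5.73) on the B6 background. That difference was -0.26 ± 0.08 (adjusted p = 0.0273) and was lost in 5 of the 24 fits, those without B6 array 2, C3Bir array 2, BC-R3 array 1, CB-R1 array 1 or CB-R1 array 2 of the unstimulated cells, with a largest adjusted p of 0.0869. The unstimulated Ccr3 difference was -0.22 without the 4 arrays of high cytokine mean and did not pass (adjusted p = 0.37). Of the 4 eosinophil markers measured other than Ccr3, 3 averaged below the lower quartile of the arrays, and the mean of the 4 was 5.22 to 5.51 on the C3Bir background and 5.14 to 5.45 on the B6 background. Siglecf, an eosinophil surface lectin on this list, was higher on the C3Bir background unstimulated, by 0.59 ± 0.15 (adjusted p = 0.0104), opposite in sign to Ccr3. It is itself a dim probe set, with a mean of 5.13 over the 24 arrays, below the lowest array lower quartile of 5.29.

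**Figure D4:**
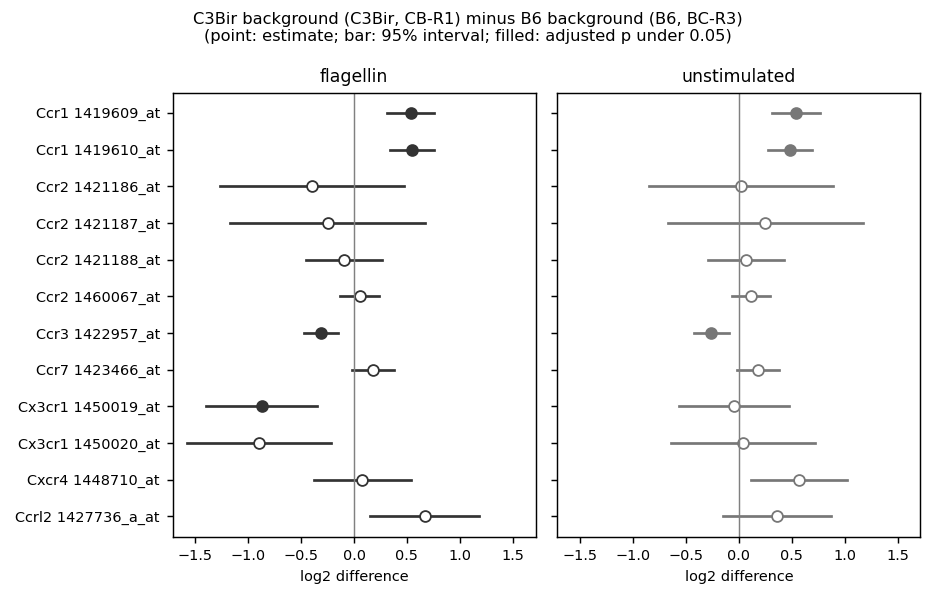
C3Bir background (C3Bir and CB-R1) minus B6 background (B6 and BC-R3) in log2 units on the horizontal axis for the 12 probe sets, with flagellin on the left and unstimulated on the right; points are estimates, bars 95% intervals, and filled points have an adjusted p under 0.05. Both Ccr1 probe sets lie above 0 in both conditions and Ccr3 lies below 0.

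Ccr1 and Ccr3 sit beside each other on chromosome 9, with Ccr1l1 between them and Ccr2 next to Ccr3 in the RefSeq order of GRCm38.p6. Ccrl2 and Cx3cr1 lie elsewhere on chromosome 9, Ccr7 is on chromosome 11 and Cxcr4 on chromosome 1, so none of the 7 is on chromosome 3, which carries Cdcs1. Of 8 other measured genes around Ccr1, Ccr3 and Ccr2, among them Ccr9, Cxcr6, Xcr1 and Ccr1l1, 0 passed by background with flagellin and 0 unstimulated (limma). Their differences ran over -0.14 to 0.14 with flagellin and -0.31 to 0.41 unstimulated, with lowest adjusted p of 0.229 and 0.155. Xcr1, Cxcr6, Ccr9 and Ccr1l1 averaged 4.98, 5.50, 6.20 and 6.52, all below the lowest array median of 6.55. A lack of calls in such dim probe sets does not show whether the region differed.

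Ccr7, the receptor that guides mature dendritic cells to lymph nodes, stayed between 5.93 and 6.79 on the 24 arrays and passed in none of the 17 contrasts. Its highest mean was 6.60 ± 0.18 in CB-R1 with flagellin (SD, n = 3) and its lowest 6.12 ± 0.20 in B6 with flagellin. With flagellin, CB-R1 had 6.42, 6.60 and 6.79, against 6.28, 6.04 and 6.04 in C3Bir. These arrays did not overlap, and the difference of 0.48 ± 0.13 did not pass (adjusted p = 0.232).

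The Cdcs1 allele was examined with the background held equal, as the mean of C3Bir minus CB-R1 and of BC-R3 minus B6. With the C3Bir allele, 0 of the 12 receptor probe sets passed with flagellin and 0 unstimulated (limma), where 0.0511% and 4.28% of all probe sets did. At an unadjusted p under 0.05, 0 of the 12 passed with flagellin, against 5.32% of all probe sets, and 2 unstimulated, against 21%, Ccr1 1419609_at at 0.29 ± 0.11 and Cxcr4 at 0.52 ± 0.22 (adjusted p = 0.125 and 0.171). The strain pairs behind the Cxcr4 value ran opposite ways by allele, since CB-R1, which carries the B6 allele, exceeded C3Bir by 0.65 ± 0.31, and BC-R3, which carries the C3Bir allele, exceeded B6 by 1.69 ± 0.31. Limma's trend and robust options also gave 0 adjusted calls in both conditions. With unstimulated array 1 left out in C3Bir, BC-R3 and B6, the unstimulated count was 3 of the 12, Ccr1 1419609_at at 0.38, Cxcr4 at 0.76 and Cx3cr1 1450019_at at 0.69, against 14.6% of all probe sets in that fit. The pairs again ran opposite ways by allele for Cxcr4, with CB-R1 above C3Bir by 0.90 and BC-R3 above B6 by 2.41, and for Cx3cr1 1450019_at, at 0.67 and 2.05.

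Within groups, Cxcr4, Ccrl2, Ccr2 1421186_at and Cx3cr1 1450020_at varied with each other. Deviations from the group means over the 24 arrays correlated at -0.84 between Cxcr4 and Ccrl2, at -0.92 between Ccr2 1421186_at and Ccrl2, at 0.70 between Ccr2 1421186_at and Cxcr4 and at 0.80 between Cx3cr1 1450020_at and Cxcr4. The 2 Ccr1 probe sets correlated at 0.77 and the 2 Cx3cr1 probe sets at 0.89. These values come from the same RNA on the same arrays and rest in part on the 4 arrays of high cytokine mean, so they are given as a description.

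Among the ligands of these receptors, 7 of the 14 measured genes fell with flagellin in B6 and 0 rose, with a median of -0.53, against 2146 higher and 1528 lower of 18193 genes and a median of -0.02. Ccl12 and Ccl2, ligands of Ccr2, stood at -3.28 ± 0.56 and -2.22 ± 0.44, and Ccl5 and Ccl4, inflammatory CC chemokines, at -2.96 ± 0.74 and -2.36 ± 0.50. The list shared the pattern of the cytokine mean on the B6 unstimulated arrays, and its part in the receptor values was not tested. By background, 1 ligand was higher and 4 lower with flagellin, with Ccl9, a ligand of Ccr1, at -1.26 ± 0.16, Ccl3 at -1.68 ± 0.41, Ccl4 at -1.33 ± 0.36 and Ccl8 at 1.24 ± 0.20. Unstimulated, 1 was higher and 8 were lower by background, against 1895 higher and 1193 lower of all genes. With the C3Bir allele of Cdcs1, 4 of the 14 were lower unstimulated, Ccl12 at -1.98 ± 0.40, Ccl7 at -1.19 ± 0.26, Cxcl12 at -1.16 ± 0.33 and Ccl8 at -0.74 ± 0.20, against 402 higher and 334 lower of all genes. With flagellin 0 of the 14 passed by allele, against 3 higher and 4 lower of all genes. Unstimulated, 7 of the 14 were lower in BC-R3 than in B6 (Ccl12 at -3.48 ± 0.56). Between CB-R1 and C3Bir unstimulated 0 of the 14 passed. Over all genes 3105 were higher and 2190 lower in the first pair, and 99 and 25 in the second. The B6 unstimulated group includes arrays of high cytokine mean, and ligand values without them are not given. Of the 7 stromal markers other than Cxcl12, 3 were also lower in the unstimulated allele contrast, Col1a2 at -1.42 ± 0.38, Col3a1 at -1.33 ± 0.31 and Pdgfrb at -0.51 ± 0.13, and their part in the Cxcl12 difference was not tested.

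Among 24 measured genes of receptor signalling and desensitization, 5 were higher and 1 lower with flagellin in B6, with a median of 0.07. Over all 18193 genes 2146 were higher and 1528 lower in that comparison, with a median of -0.02. Arrb1 and Arrb2, the beta-arrestins that desensitize such receptors, stood at 0.92 ± 0.19 and 0.76 ± 0.26, Rgs2, a regulator of G protein signalling, at 1.05 ± 0.33, and the kinase gene Jak2 at -1.35 ± 0.36. The B6 unstimulated group includes arrays of high cytokine mean, and values of these genes without them are not given. In C3Bir, BC-R3 and CB-R1 0 of the 24 passed for flagellin, and 0 of all genes did. By background 3 were higher and 0 lower with flagellin, Grk5, a receptor kinase, at 0.40 ± 0.08, Rgs1 at 0.31 ± 0.08 and the small GTPase Rac2 at 0.27 ± 0.06, against 1488 higher and 1057 lower of 18193 genes. The G protein subunit Gnai2 was 1 of 2 list genes whose flagellin change differed between BC-R3 and B6, at -0.43 ± 0.11, of 24 measured, against 632 higher and 1004 lower of 18193 genes.

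Of 15 other chemokine receptors measured, 2 were lower with flagellin in B6 and 0 higher, Cxcr6 at -0.27 and Ackr1 at -0.22, against 1528 lower and 2146 higher of 18193 genes. In the other 16 contrasts 0 of the 15 passed (limma), also for BC-R3 against B6 unstimulated, where 3105 of 18193 genes were higher and 2190 lower. Their mean over the list lay between 6.02 and 6.23 on all arrays, and 4 of the 15 averaged below the lower quartile of the arrays.

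By likeness over the 24 arrays among 18192 genes, the genes nearest to Cxcr4 were Fam78a, Cebpa and Rassf2 (r = 0.978, 0.975 and 0.975), and those nearest to Ccrl2 were Dcbld2, Met and Trpm4 (r = 0.971, 0.971 and 0.968). Those nearest to Ccr1 were Atp6v0d2, Tbc1d9 and Lrpap1 (r = 0.934, 0.932 and 0.925), and those nearest to Cx3cr1 1450020_at were Bin1, Rcc2 and Rgs19 (r = 0.946, 0.912 and 0.910). For Ccr3 they were Top3a, Cmklr1 and Trim30d, for Ccr7 Mcemp1, Smim5 and Cldn1, and for Ccr2 1460067_at Nrip3, Scnn1a and Dclk1, at r of 0.743 to 0.877. For Ccr2 1421186_at, added after its values were seen, they were Fcrls, Alox5ap and Wnk1 (r = 0.971, 0.970 and 0.939). All genes share the same 24 arrays, so these values are a description and carry no p.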

How the data were processed

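Total RNA was labelled with biotin and hybridised to 24 Affymetrix arrays, per the labels' protocols. The deposited table holds a log2 value for each probe set and array. Summarisation and normalization by the authors are not given in the sources used here. Of its 45037 probe sets, 4 were empty, and the 45033 others were used as deposited, since array medians differed by less than 0.1. Gene symbols came from a platform annotation that lists 35877 probe sets, and 34944 of those used had 1 symbol, 931 several and 9158 none. No pair of arrays was identical.

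With limma 3.58.1 in R 4.3.3 all 24 arrays were fitted by 1 linear model of group means (16 residual and 4.02 prior degrees of freedom). The 17 contrasts were two-sided and adjusted by Benjamini-Hochberg within each contrast over all probe sets, and calls had an adjusted p under 0.05. The test was checked on simulated data with 1 spread per probe set for all groups, and changes placed in probe sets of below-median spread. That check does not cover a spread that differs between groups. Cxcr4, for example, had an SD of 1.05 in B6 unstimulated and 0.06 in CB-R1 with flagellin. The members, gene lists and excluded arrays were chosen with earlier results of these data known, and the 4 and 3 arrays left out were singled out by those results. Comparisons that share a group share its arrays. For lists, the probe set with the highest mean stood for a gene, and at most 4 called genes with the largest change were named per contrast described. Promoters came from RefSeq on GRCm38.p6, with 8 windows for 6 of the 7 receptors.

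Alternatives were median centring, quantile normalization, 1 probe set per gene, a filter on low values, trend and robust options, the compared groups alone, a block by replicate number, and exclusions of arrays. Same-numbered flagellin and unstimulated arrays of a strain deviated together at a correlation over 0.1 in 8 of 12 pairs, all 3 in C3Bir and in CB-R1 but not in BC-R3 and B6. Arrays of the compared strains did so in 8 of 18 pairs. Per the labels, each donor's cells were split between medium and flagellin, but no number is tied to a donor. Where all 3 pairs passed, the block changed no call of a receptor.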

Additional observations from a re-analysis of the deposited data

Results flagged for a closer look

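The flagellin change of Cxcr4 differed between BC-R3 and B6, by -1.76 log2 units (BC-R3 minus B6, adjusted p = 0.0265, limma interaction term). The BC-R3 flagellin arrays averaged 12.28, against 12.53 unstimulated, and the B6 flagellin arrays averaged 12.35, against 10.84 unstimulated. It was singled out because the test of the difference itself passed. Without the 4 arrays of high cytokine mean, which leaves 1 B6 unstimulated array, the Cxcr4 difference was -0.55 (adjusted p = 0.448), and it was lost in 6 of the 24 fits without 1 array, those without B6 unstimulated array 2 or 3, BC-R3 unstimulated array 2 or 3, or BC-R3 flagellin array 2 or 3 (largest adjusted p = 0.0839).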

How the results depend on the processing

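Counts are of the 12 receptor probe sets that passed. Without C3Bir and B6 unstimulated arrays 2 and 3, which leaves 1 unstimulated array in each of these strains, 0 passed for flagellin in B6 (4 with all arrays), for C3Bir against B6 unstimulated (3) and for BC-R3 against B6 unstimulated (7), 1 by background unstimulated (3), and 0 for the flagellin change of BC-R3 against B6 (1). The Cx3cr1 1450020_at difference was -0.15 both for flagellin in B6 and for BC-R3 against B6 unstimulated. With unstimulated array 1 left out in C3Bir, BC-R3 and B6, 2 passed for flagellin in C3Bir (0), 1 in BC-R3 (0), 5 for C3Bir against B6 with flagellin (3), 6 for CB-R1 against C3Bir unstimulated (0), 3 for the allele unstimulated (0), and 6 for the flagellin change of BC-R3 against B6 (1), 2 for that of C3Bir against B6 (0) and 1 for that of CB-R1 against C3Bir (0). Calls over all probe sets rose in the same fit, to 4.17% for flagellin in C3Bir, 3.22% in BC-R3, 8.86% for C3Bir against B6 with flagellin, 10.1% for CB-R1 against C3Bir unstimulated, 14.6% for the allele, and 25.7%, 6.07% and 2.69% for those flagellin changes in the order given. The cause was not tested. The filter removed low probe sets, which left 1 for C3Bir against B6 with flagellin, and 2 with flagellin and 1 unstimulated by background. With 1 probe set per gene, 4 passed for BC-R3 against B6 unstimulated and 2 by background with flagellin, of 7 tested. With the compared groups alone, which leaves fewer samples, 0 passed for flagellin in B6, BC-R3 against B6 unstimulated and the flagellin change of BC-R3 against B6. A replicate block of strain and number together gave 6 for flagellin in B6 and 4 for the flagellin change of BC-R3 against B6, and a replicate block by number alone gave 4 and 1.

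Leaving out each array in turn gave 1 to 6 for flagellin in B6, 2 to 8 for BC-R3 against B6 unstimulated, 0 to 2 for the allele unstimulated, 2 to 5 for C3Bir against B6 with flagellin, 0 to 4 for CB-R1 against C3Bir unstimulated, and 0 to 3 for the flagellin changes of BC-R3 and of C3Bir against B6. With 3 arrays a group and no detection call, small differences of dim probe sets such as Ccr3 cannot be told from background signal.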
